A study of Mus musculus with 4 samples.

Results

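The genes described here belong to the integrated stress response: Atf3, Atf4, Ddit3, Ddit4, Ppp1r15a, Asns and Slc3a2. They were chosen by name, as all probe sets whose platform gene symbol is one of these 7. This gave 10 of the 10833 probe sets that carry 1 gene symbol, and 7 of 8251 genes. Their transcripts were read in lung RNA on Affymetrix MG_U74Av2 arrays, with the whole lungs of each group pooled, and all mice were of the inbred strain C57BL/6J. There were 4 pools with 1 array each: unexposed lungs, titled with 0 h, and lungs collected 6, 18 and 90 h after mice inhaled an aerosol of hexamethylene diisocyanate (HDI) at 10 mg/m3. HDI is a reactive chemical of polyurethane paints that irritates the airways. The labels name no other treatment or allele, and give neither the number of mice in a pool nor the length of exposure. With 1 array per group no test was possible, so each fold describes these arrays. The 3 comparisons with unexposed lungs share 1 array.

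Cells slow protein synthesis under stress by phosphorylating eIF2alpha, the regulated subunit of translation initiation factor eIF2. Sensor kinases do this in response to heme shortage, viral RNA, misfolded protein in the endoplasmic reticulum or missing amino acids, and oxidants and electrophiles can trigger it too. While most translation falls, the mRNA of the transcription factor ATF4 is translated better, and ATF4 switches on genes for amino acid supply, redox defence and, through DDIT3 (CHOP), cell death. PPP1R15A (GADD34) brings a phosphatase to eIF2alpha and so ends the response. Because ATF4 is controlled largely at translation, an mRNA level does not measure its protein.

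ATF4 dimers bind a composite site called the C/EBP-ATF response element, or CARE. The promoters of the members were therefore read from RefSeq (GRCm38.p6), which held all 7, over 250 bases upstream and 50 downstream of the start. Both strands were searched for 6 motifs, spelled here as searched: the CARE core TGATGNAA, the cyclic AMP response element TGACGTCA, the second nutrient-sensing element of Asns GTTACA, the AP-1 site TGANTCA, the endoplasmic reticulum stress element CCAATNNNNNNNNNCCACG and the glucocorticoid response element GNACANNNTGTNC. Of 32851 promoter windows of this length, 3.97% held the CARE core, 1.79% the cyclic AMP response element, 8.25% the GTTACA element, 7.81% the AP-1 site, 0.119% the endoplasmic reticulum stress element and 0.475% the glucocorticoid response element. The CARE core was found in 2 members, Atf3 and Asns. Asns also held the GTTACA element, Ppp1r15a the cyclic AMP response element, and Ddit3 an AP-1 site that begins 242 bases upstream of its start. No match lay in the windows of Atf4, Ddit4 and Slc3a2. A match describes letters and shows no binding, and a missing match says nothing of sites outside these windows. The motifs were chosen from general knowledge of these genes.

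The 3 promoters with a match near the start are shown so that the matched letters can be read in place. Each runs 5′ to 3′ on the gene's strand from base -150 to base 10 around the start, with the matches in capitals. Atf3 lies at chr1:191183324-191183483 on the minus strand, with its CARE core (on the opposite strand) at bases -110 to -103. Ppp1r15a lies at chr7:45526259-45526418 on the minus strand, with its match at bases -12 to -5. Asns lies at chr6:7693200-7693359 on the minus strand, with the CARE core at bases -23 to -16 and GTTACA at bases -3 to 3.
Atf3: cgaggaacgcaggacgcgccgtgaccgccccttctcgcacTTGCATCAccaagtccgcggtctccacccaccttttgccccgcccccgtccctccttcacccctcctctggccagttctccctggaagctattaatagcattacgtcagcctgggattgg
Ppp1r15a: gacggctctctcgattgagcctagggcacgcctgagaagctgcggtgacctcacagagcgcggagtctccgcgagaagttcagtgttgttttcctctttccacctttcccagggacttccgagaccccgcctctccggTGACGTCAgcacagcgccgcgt
Asns: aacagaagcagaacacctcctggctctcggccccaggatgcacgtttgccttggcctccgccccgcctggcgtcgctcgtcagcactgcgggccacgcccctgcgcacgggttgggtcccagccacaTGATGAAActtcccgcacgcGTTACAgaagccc

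The arrays were alike in depth of signal, with deposited medians of 97.7 to 108 intensity units and scale factors of 0.970 to 1.07. Intensities below are scaled, in arbitrary units, and values under 77.7 units were set to that floor before log2 was taken. RNA integrity was read from Gapdh, whose 3' to 5' ratio was 1.12 to 1.22. Lung markers were present: 3 of 4 type II alveolar markers, all but Sftpd, and all of the 4 type I alveolar, 4 club and ciliated and 8 endothelial markers were above the floor on every array. Marker levels of some other cells differed between pools. The summed intensity of 6 adipocyte markers was 818 units in unexposed lungs and 1896, 831 and 741 at 6, 18 and 90 h, with 3, 6, 2 and 2 of them above the floor. That of 6 B cell markers was 1330, 740.5, 973 and 991, and that of 7 macrophage markers 997, 876, 915 and 1830. That of 11 skeletal and heart muscle markers was 5451, 5249, 4779.5 and 3792, with 9, 10, 10 and 8 above the floor and Myl2 under it throughout. Within that list Acta1, skeletal muscle actin, read 7.25, 611, 392 and 1.69 units, high in the 6 and 18 h pools. Mb, myoglobin, read 547, 639, 363 and 129, and Ckm, muscle creatine kinase, 119, 156, 117 and 35.4. Most of the list did not follow Acta1. Of 10 genes compared, 3 were above unexposed lungs at 6 h and 3 at 18 h, with median log2 differences of -0.10 and -0.22. The part of these cells in the results was not tested, and in whole tissue fewer cells of a type cannot be told apart from less RNA per cell.

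**Figure D1:**
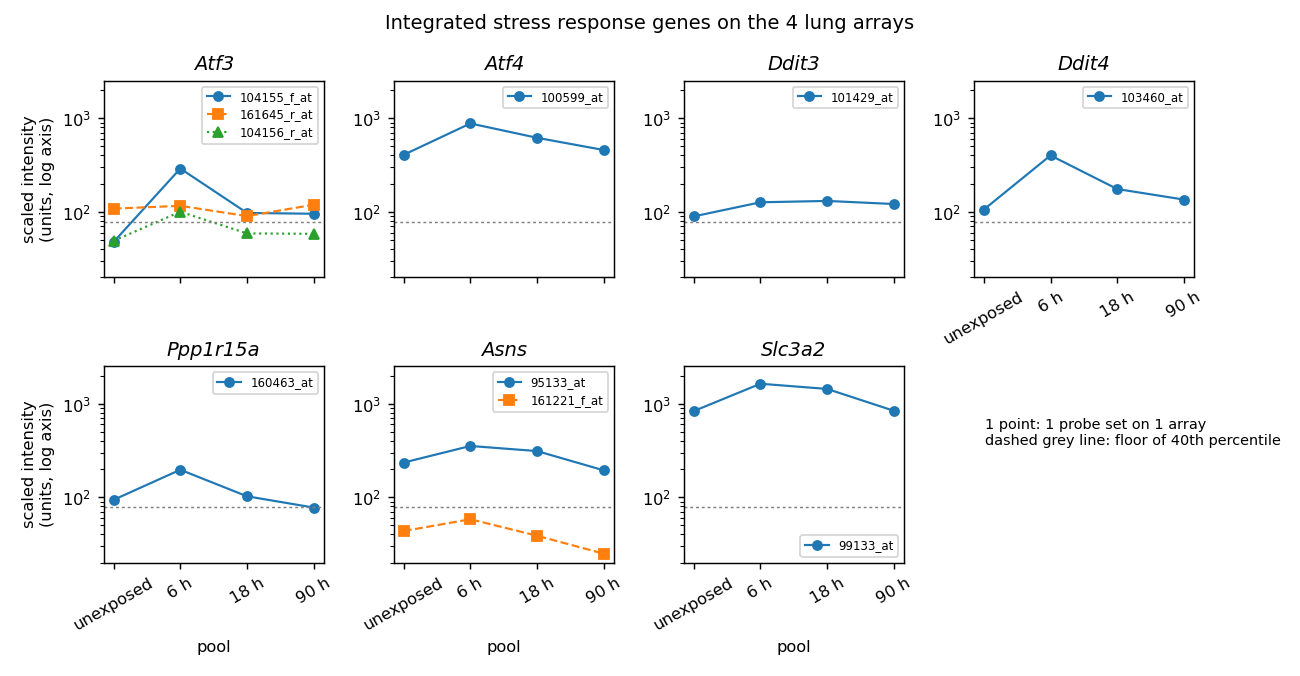
Scaled intensity (arbitrary units, log axis) of each probe set of the 7 genes in the 4 pools, 1 point per array, with the floor of 77.7 units as a dashed line. In 6 genes the brightest probe set was highest at 6 h, while Ddit3 was nearly level over the 3 exposed pools.

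All 7 genes were higher at 6 h than in unexposed lungs, and 4 of them passed 2-fold: Ddit4, Atf3, Atf4 and Ppp1r15a. Over all genes compared, 2.17% of 6044 were at least 2-fold higher and 45.4% were above 0. The median log2 difference was 1.07 over the 7 genes and -0.04 over all genes. The genes were chosen with such results known, so these counts describe them and do not support a statement about the response as a whole. At 18 h all 7 were still above unexposed lungs with a median of 0.55, where 48.1% of all genes were above and their median was -0.01. Among them Ppp1r15a stood at only 0.13, and Atf3 at a bound of 0.32 that became 0.02 with its probe sets averaged. None of the 7 was 2-fold higher at 18 h, against 1.59% of 6040 genes. At 90 h the median was 0.17, with 5 above and 2 below, where 53.8% of all genes were above with a median of 0.03. None of the 7 was 2-fold higher at that time, against 0.726% of 6062 genes, or 2-fold lower, against 0.924%.

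Among the transcription factors, Atf4, the central activator of the response, read 407, 880.1, 618 and 458 units in the unexposed, 6, 18 and 90 h pools. It was well above the floor in every pool, highest at 6 h and lower at each later time. Its log2 differences from unexposed lungs were 1.11 at 6 h (2.16-fold), 0.60 at 18 h (1.52-fold) and 0.17 at 90 h (1.13-fold). At 6 h it ranked 71st from the top among 5358 genes measured on both arrays. All 8 other ways of processing kept it past 2-fold at 6 h, with log2 differences of 1.03 to 1.23.

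Atf3, a bZIP factor that is induced quickly in injured cells and is a target of ATF4, read 47.6, 290.0, 97.2 and 95.3 units by its brightest probe set, 104155_f_at. The 6 h pool stood far above the others, and the unexposed value lay under the floor, so that fold is a bound. Atf3 was at least 3.73-fold higher at 6 h, at least 1.25-fold at 18 h and at least 1.23-fold at 90 h. From 6 h to 18 h, both measured, it was 2.98-fold lower. The other 2 probe sets did not show this size. The probe set 104156_r_at, annotated with the same source sequence, read 48.9, 100.1, 58.8 and 58.1 units, above the floor at 6 h alone. The probe set 161645_r_at, from another source sequence, read 108, 116, 89.9 and 119, with log2 differences of 0.10 at 6 h and -0.26 at 18 h. All 3 carry a name suffix (_f or _r) of the kind that marks a departure from the standard probe set design. With the 3 averaged, the log2 difference at 6 h was 0.79 and no longer passed 2-fold, while a floor at the 25th percentile raised the bound to 2.61.

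Ddit3, which encodes the stress factor CHOP and is itself a target of ATF4, had the smallest difference of the 7 at 6 h. It read 89.3, 126, 131 and 121 units. All 3 exposed pools lay above the unexposed one, which was close to the floor, and they lay within 10 units of each other. The log2 differences were 0.50, 0.55 and 0.44 at 6, 18 and 90 h, or 1.42-fold, 1.46-fold and 1.36-fold. It was the only member whose highest reading was at 18 h, but that reading exceeded the 6 h one by only 1.03-fold. As a yardstick, probe sets of the same gene disagreed on the 6 h difference with a robust SD of 0.27 log2 units per probe set, and with 0.28 and 0.24 at 18 and 90 h. This yardstick leaves out differences between animals, pools and arrays.

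Of the genes that act on protein synthesis, Ddit4 (REDD1), which restrains the growth kinase complex mTORC1, had the largest measured difference. It read 106, 401, 175 and 135 units. The 6 h pool was far above the other 3, and all exposed pools were above the unexposed one. Ddit4 was 3.79-fold higher at 6 h, 1.66-fold at 18 h and 1.28-fold at 90 h, with log2 differences of 1.92, 0.73 and 0.35. At 6 h it ranked 13th of the 5358 genes measured on both arrays. It is also known as a gene that glucocorticoids and hypoxia induce.

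Ppp1r15a (GADD34), the phosphatase subunit that reverses eIF2alpha phosphorylation, read 93.8, 197, 102 and 77.5 units. The 6 h pool was the highest, the unexposed and 18 h pools lay close together, and at 90 h it lay just under the floor. It was 2.10-fold higher at 6 h and 1.09-fold at 18 h, and at least 1.21-fold lower at 90 h, a size the floor fixes. The 6 h difference was 1.07 on the log2 scale. A floor at the 60th percentile gave 0.51, and adding 50 units to every value in place of a floor gave 0.78, both under 2-fold, so its place past the threshold depends on how dim values are treated.

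The 2 genes of amino acid supply were nearly as high at 18 h as at 6 h. Slc3a2 (CD98, 4F2 heavy chain), the shared heavy chain of several amino acid exchangers, read 833, 1634, 1437 and 839.5 units. The 6 and 18 h pools stood together well above the unexposed and 90 h pools, which nearly coincided. Its log2 differences were 0.97 (1.96-fold), 0.79 (1.73-fold) and 0.01. It was just short of 2-fold at 6 h and passed it, at 1.08 on the log2 scale, with unscaled intensities.

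Asns, asparagine synthetase, read 235, 353, 311 and 194 units by probe set 95133_at. It was highest at 6 h, nearly as high at 18 h and lowest at 90 h. The log2 differences were 0.59, 0.41 (1.33-fold) and -0.28 (1.21-fold lower). Its other probe set, 161221_f_at, read 43.5, 58.2, 38.7 and 24.9 units, under the floor on all arrays, which gives no fold. Averaging both probe sets brings the 6 h difference to 0.29.

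**Figure D2:**
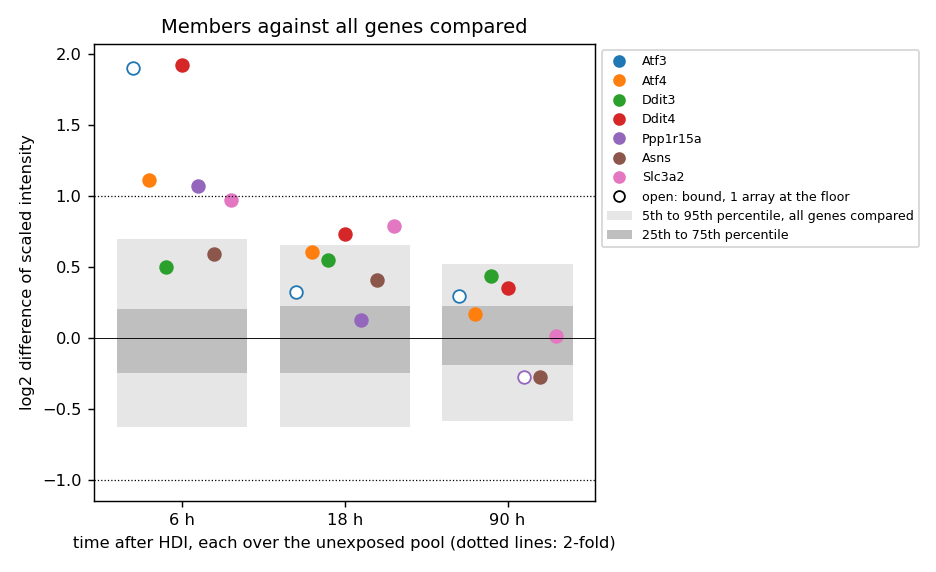
Log2 difference of scaled intensity from the unexposed pool at 6, 18 and 90 h, 1 point per gene (open where 1 array was at the floor), over bands of the 5th to 95th and 25th to 75th percentile of all genes compared. At 6 h 5 genes lie above the 95th percentile of 0.70, and at 90 h all 7 lie inside the band, which ends at 0.52.

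The genes differed in how much of the 6 h difference was left at 18 h. Of the log2 difference at 6 h, Ppp1r15a kept 11.8% at 18 h, Ddit4 38.0%, Atf4 54.3%, Asns 69.3% and Slc3a2 81.0%, while Ddit3 stood at 110% of it. Atf3 is left out since its unexposed value was at the floor. These percentages divide differences of single arrays and are loosely fixed. The 6 h differences of Asns and Ddit3 were only 2.16 and 1.83 yardstick SDs. For Ddit4 a floor at the 60th percentile gave 1.54 at 6 h and 0.35 at 18 h, in place of 1.92 and 0.73. Against the 6 h pool, in which the unexposed array has no part, 2 of the 7 were at least 2-fold lower at 18 h, Atf3 and Ddit4 (2.29-fold), where 1.17% of 5994 genes were. At 90 h 3 of the 7 were at least 2-fold lower than at 6 h, where 2.15% of 6058 genes were: Atf3 (3.04-fold), Ddit4 (2.97-fold) and Ppp1r15a (at least 2.53-fold). Slc3a2 was 1.95-fold, Atf4 1.92-fold, Asns 1.82-fold and Ddit3 1.04-fold lower.

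Slc3a2 and Asns were lower by 1.71-fold and 1.61-fold from 18 to 90 h. The others were lower by less over this interval: Atf4 (1.35-fold), Ddit4 (1.30-fold), Ddit3 (1.08-fold) and Atf3 (1.02-fold), with Ppp1r15a at least 1.32-fold lower, a bound. Of the 5 members above the floor in all 4 pools, 4 were highest at 6 h and lower at each later time. Among 5083 genes above the floor throughout, 24.7% were highest at 6 h and 14.4% were also lower at each later time.

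Genes upstream of Atf4 were close to unexposed lungs. Of 10 eIF2 kinases, eIF2 and eIF2B subunits and their partners compared, of 13 on the array, none passed 2-fold at any time, with medians of 0.04, 0.18 and 0.11 at 6, 18 and 90 h. Eif2ak3 (PERK), the kinase that senses endoplasmic reticulum stress, was under the floor in unexposed lungs and read 97.2, 89.3 and 90.9 units later. Its log2 differences of 0.32, 0.20 and 0.23 are therefore bounds, as are those of Eif2b1. Of the genes above the floor on both arrays, Eif2s2 and Dnajc3 had the largest differences, 0.58 at 18 h and 0.57 at 6 h. Eif2s2 is the beta subunit of eIF2, and Dnajc3 an inhibitor of eIF2alpha kinases. Of 4 phosphatase partners none passed 2-fold. Ppp1r15b, the constitutive relative of Ppp1r15a, had log2 differences of 0.55, 0.42 and 0.47, and Ppp1cb, a catalytic subunit, 0.22, -0.19 and -0.29. Transcript levels do not show kinase activity.

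Among bZIP factors that can pair with the ATF4, ATF3 and DDIT3 proteins or relate to them, 20 could be compared at 6 h, 4 of which were 2-fold higher or more and 1 lower (median 0.20). Cebpd, a C/EBP factor, read 446, 1371, 1135 and 502 units, 3.07-fold higher at 6 h and 2.55-fold at 18 h. Of the AP-1 factors Fos was 2.94-fold, Fosl1 at least 2.41-fold and Junb 2.24-fold higher at 6 h, Junb remained 2.33-fold higher at 18 h, and Fos was 2.33-fold higher at 90 h. The Junb probe set has a suffix of the kind described for Atf3. Batf, an AP-1 relative of lymphoid cells, was 2.73-fold, 3.33-fold and 2.80-fold lower at the 3 times. Cebpb had its largest difference at 18 h (0.73), and Cebpg, which pairs with ATF4, was under the floor in all pools.

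Of other stress-induced targets of ATF4 and CHOP, 16 of 21 on the array could be compared at 6 h, and 4 were at least 2-fold higher. The median was 0.46, then 0.14 and -0.11 at 18 and 90 h. At 6 h 14 of the 16 were above 0, beside 45.4% of all genes, some of them by less than the probe set yardstick. Cdkn1a (p21) was 6.29-fold, Hmox1, heme oxygenase, 5.62-fold, Gadd45a at least 2.82-fold and Sqstm1, an autophagy receptor, 2.12-fold higher. Of these, Cdkn1a alone passed 2-fold at 18 h (2.40-fold). All 4 answer to other activators too, among them p53 and NRF2. Eif4ebp1, a brake on cap-dependent translation, had a log2 difference of 0.84 at 6 h. Nupr1 (0.01) and Herpud1 (0.17) were near 0. Trib3, a pseudokinase often used as a marker of this response, read 66.5, 56.8, 42.8 and 40.4 units, under the floor in all pools, as did Stc2.

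**Figure D3:**
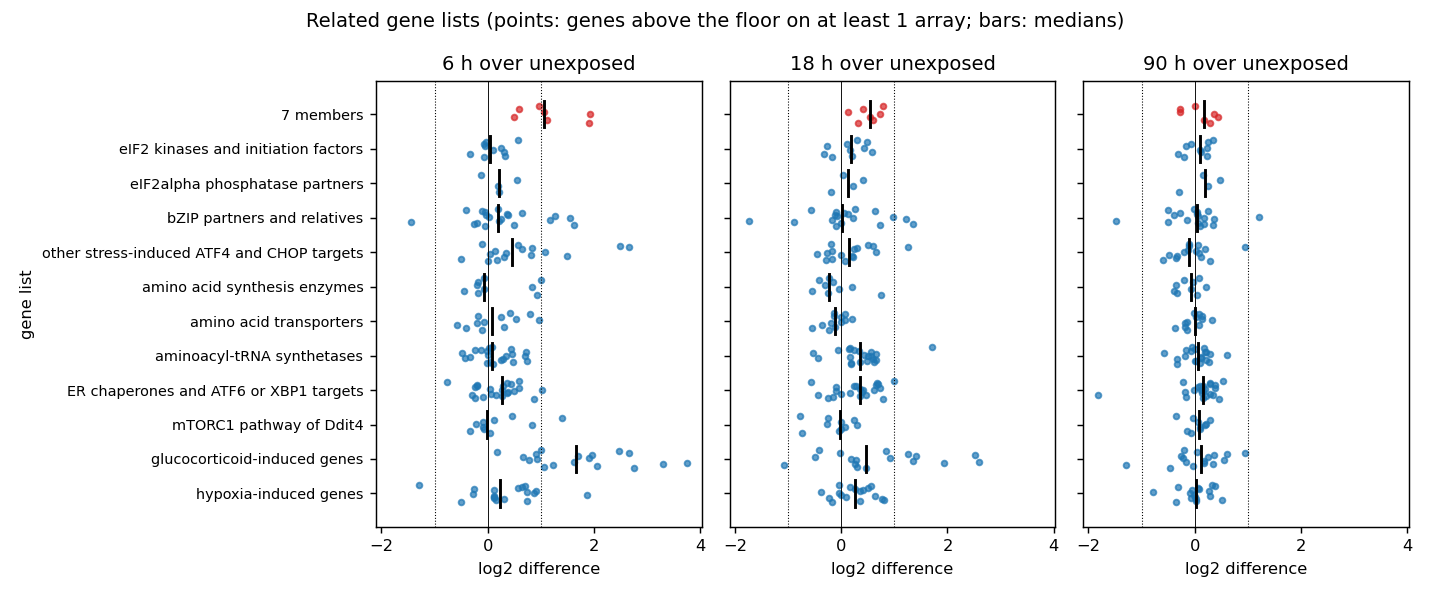
Log2 difference from the unexposed pool at 6, 18 and 90 h for the 7 genes and for 11 related lists, 1 point per gene above the floor on at least 1 of the 2 arrays, with bars at the medians. The glucocorticoid list has the highest median at 6 h, 1.66, and the members' median is 1.07, while the kinase, transporter and mTORC1 lists sit near 0.

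Genes of amino acid supply outside the 7 had medians near 0 at 6 h. Of 9 synthesis enzymes compared, of 15 on the array, 3 were above 0 at 6 h and the median was -0.07, with Glul, glutamine synthetase, 2.0-fold higher. Glul is also in the glucocorticoid list. Psat1, of serine synthesis, read 55.6, 147.0, 131 and 79.7 units, at least 1.89-fold higher at 6 h, and Mthfd2, a mitochondrial folate enzyme, 70.2, 139, 89.2 and 90.1 units, at least 1.79-fold. Psph, which makes serine, had log2 differences of -0.44, -0.55 and -0.40. Of 12 transporters compared none passed 2-fold at any time (medians 0.09, -0.13 and 0.01). The neutral amino acid carriers Slc1a4 (0.98) and Slc38a2 (0.80) had the largest differences at 6 h, and neither stood far from 0 at 18 h (0.07 and 0.07). Of the light chains that pair with Slc3a2, Slc7a5 had log2 differences of 0.30, -0.12 and -0.19 and Slc7a7 of -0.58, -0.36 and 0.09. Slc7a6, Slc7a8 and Slc7a11 were under the floor in all pools.

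The aminoacyl-tRNA synthetases load amino acids onto tRNA. Of 21 compared, 14 were above 0 at 6 h, 18 at 18 h, and 12 of 20 at 90 h, with medians of 0.08, 0.35 and 0.05, beside 45.4%, 48.1% and 53.8% of all genes above 0. The times were not tested against each other. Only Aimp2, a scaffold of the synthetase complex, passed 2-fold (3.29-fold at 18 h). Of genes above the floor on both arrays, Gars, Tars and Nars had the largest log2 differences at 6 h, 0.75, 0.73 and 0.71. Theirs were lower at 18 h, 0.49, 0.56 and 0.57. The list median went the other way, as did Iars (0.29, then 0.61) and Rars (0.45, then 0.65). Sars (-0.48, -0.54 and -0.59), Kars and Yars were below unexposed lungs at 6, 18 and 90 h. Kars was under the floor at 6 and 18 h, so its -0.43 at both times is a bound.

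Chaperones of the endoplasmic reticulum and other targets of ATF6 or XBP1, the sister branches of the unfolded protein response, had medians of 0.27, 0.36 and 0.16, with 15, 16 and 17 of 22 genes above 0, beside 45.4%, 48.1% and 53.8% of all genes. Hspa5 (BiP), the main chaperone, read 914, 1683, 1581 and 1262 units, with log2 differences of 0.88, 0.79 and 0.47. Dnajb9 was 2.04-fold higher at 6 h and Wfs1 2.0-fold at 18 h. P4hb was 3.54-fold lower at 90 h, again by a suffix-marked probe set.

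Lists for other known inducers of Ddit4, and for the mTORC1 pathway that it restrains, were set beside it. They were chosen with earlier results of these data known, so the counts only describe them. Some of their genes, such as Cdkn1a, answer to other activators too. Of 18 glucocorticoid-induced genes compared, of 19 on the array, 13 were at least 2-fold higher at 6 h (median 1.66), beside 2.17% of all genes. At 18 h 6 of 17 were (0.47), beside 1.59%, and at 90 h 0 of 16 (0.11), beside 0.726%. Highest at 6 h were the metallothioneins Mt2 (13.5-fold) and Mt1 (9.82-fold), followed by Fkbp5 (6.73-fold), which tunes the steroid receptor as a co-chaperone. Map3k6 was at least 5.56-fold, Zbtb16 4.18-fold, Angptl4 3.88-fold, Errfi1 3.75-fold, Pdk4 at least 3.27-fold, the kinase Sgk1 2.34-fold and the clock gene Per1 2.08-fold higher, and Cdkn1a, Cebpd and Glul, given above, complete the 13. Lcn2, a secreted iron-binding protein, was 5.76-fold higher at 18 h, where Mt2 (6.05-fold), Mt1 and Angptl4 (2.65-fold) also passed 2-fold. Short of 2-fold at 6 h were Nfkbia (1.91-fold), Lcn2 (1.88-fold), Dusp1 (1.72-fold), Klf9 (1.59-fold) and Tat (1.13-fold). Tsc22d3 was under the floor in all pools. Zbtb16 was 2.12-fold lower at 18 h and 2.46-fold lower at 90 h, and its probe set and that of Angptl4 are suffix-marked. Of 18 hypoxia-induced genes, 1 was at least 2-fold higher at 6 h, Adm (at least 3.67-fold), and 1 lower, Kdr (2.46-fold), with a median of 0.24. Of 10 mTORC1 pathway genes 1 was past 2-fold at 6 h, Sesn1 (2.63-fold), and the median was -0.02. The part of steroid hormone, hypoxia or hour of collection in the members' levels was not tested.

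The genes most like Atf4 were sought among 5082 others above the floor in all 4 pools, by the root mean square gap between their 3 log2 differences from unexposed lungs and those of Atf4. With unnamed cDNAs passed over here and below, the nearest were Zfp36 (gap 0.03), Creg1 (0.05), Tbc1d15 (0.08), Psmd11 (0.09) and Entpd1 (0.10). Zfp36 had log2 differences of 1.07, 0.62 and 0.15. Of the members in this search, Slc3a2 was 18th nearest (0.16), Ddit3 267th (0.39), Asns 329th (0.41) and Ddit4 563rd (0.48). These ranks count unnamed cDNAs too. Atf3 and Ppp1r15a were not searched, since each was above the floor in only 3 of the 4 pools. The genes nearest to the members' median profile were Creg1 (0.04), Zfp36 (0.04), Tbc1d15 (0.07), Psmd11 (0.09) and Klf6 (0.11). The likeness rests on 3 differences that share the unexposed array.

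**Figure D4:**
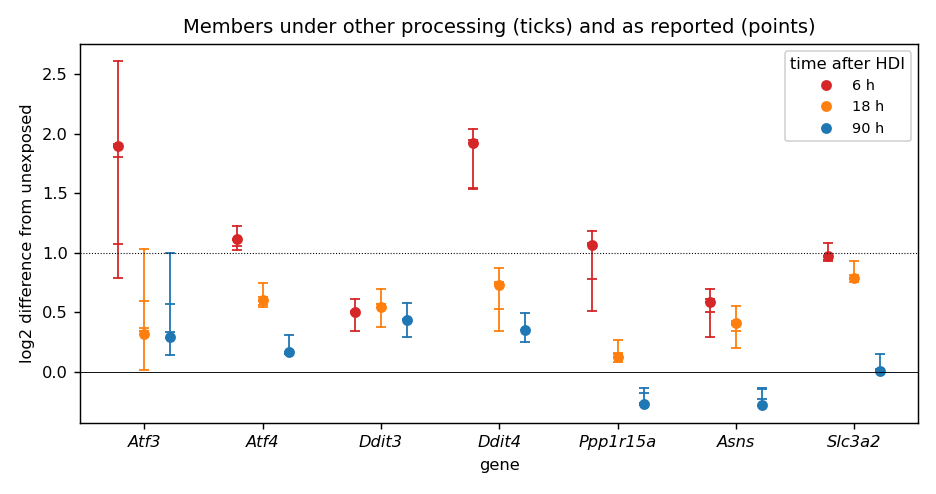
Log2 difference of each gene from the unexposed pool at 6, 18 and 90 h as reported (points) and under up to 8 other ways of processing (ticks joined by lines). Atf3 has the widest range at 6 h, 0.79 to 2.61, and Atf4 and Slc3a2 the narrowest.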

How the data were processed

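Total RNA of 4 pools of whole lung was read on 1 array each. The values deposited by the authors are linear intensities, 1 for each probe set of an array. Which software and scaling produced them was not given in the sources used here. Members and lists were chosen with earlier results of these data known. Of 12488 probe sets, 66 were controls and 10833 had exactly 1 gene symbol in the platform annotation, and the rest were left out. Arrays were scaled to a common mean after trimming 2% at each end. Scaled values under their 40th percentile, 77.7 units, were set to it, and log2 was taken. A gene was represented by its brightest probe set. It was compared where it exceeded the floor on at least 1 of the 2 arrays, and a gene at the floor on 1 array gives a bound ("at least"). With 1 array per group there is no replicate error. Named genes were all 7 members with every probe set, genes of the 11 pathway lists past 2-fold in any comparison with unexposed lungs (otherwise the 2 furthest from 0), and the nearest profiles. Other list genes and cell type markers were picked for their role or level after values were seen. Alternatives changed the scaling, floor, pseudocount, choice of probe sets and fold threshold. Code was tested on simulated arrays. Python 3.11.15, numpy 2.4.6, pandas 2.3.3 and matplotlib 3.10.9 were used.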

Additional observations from a re-analysis of the deposited data

Results flagged for a closer look

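Ppp1r15a and Asns were above unexposed lungs at 6 h and below them at 90 h, which drew attention as opposite directions in 2 exposed pools. The 6 h log2 difference exceeded the 90 h one by 1.34 for Ppp1r15a and by 0.87 for Asns. These differences were not tested, since each time has 1 array, and both 90 h values were within 0.28 of unexposed lungs.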

How the results depend on the processing

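Other scalings, floors at the 25th and 60th percentile, a pseudocount of 50, averaged probe sets, leaving out suffix-marked probe sets and thresholds of 1.5-fold and 3-fold were tried. In none of 157 recomputed differences of single members did the sign turn, and 144 stayed within the probe set yardstick. Members left at the floor on both arrays, or without a probe set, gave no difference and are not counted there. With a floor at the 60th percentile these were Ddit3 at 6, 18 and 90 h, Atf3 and Ppp1r15a at 18 and 90 h, and Ddit4 at 90 h. At 3-fold the 4 higher members at 6 h became 2, and at 1.5-fold the 0 at 18 h became 3. A floor at the 25th percentile put 1 member, Atf3, past 2-fold at 18 h and 1, again Atf3, at 90 h. The 6 h count fell to 3 with a floor at the 60th percentile, the pseudocount, averaged probe sets or no suffix-marked probe sets. It was 5 without scaling, 6 at 1.5-fold, and 4 under the other scalings and a floor at the 25th percentile. Atf4 and Ddit4 passed 2-fold at 6 h in all 8 other ways of processing. Unscaled intensities moved the median of all genes to 0.07, 0.12 and 0.16 at 6, 18 and 90 h. Leaving out suffix-marked probe sets removes Atf3. No paired analysis was possible because each group has 1 array. Dim signal limits Atf3, Ddit3 and Ppp1r15a most.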
